A study of Mus musculus with 12 samples.

Results

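Genes of NRF2 regulation, NRF2 targets and genes of glutathione, thioredoxin and peroxidase enzymes were followed after repeated ozone in alveolar macrophages. These cells are phagocytes that live in the air spaces of the lung. The 36 genes were chosen by symbol and by role, and all 36 are among the 55291 rows of the deposited expression table. They fall into 5 classes, namely 4 genes of regulation and NRF2-marked detoxification, 10 of glutathione metabolism, 11 of the thioredoxin and peroxiredoxin system, 6 of NADPH supply and 5 of superoxide and peroxide removal.

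Cells were sorted by flow cytometry from the lungs of female C57BL6/NJ mice, aged 8 to 11 weeks, and the labels name no genetic change in them. A group of 6 mice had breathed 0.8 ppm ozone and the other group of 6 filtered air, each for 4 h a day on 4 days in a row, and tissue was taken 3 days after the last exposure. The sorts were run as 2 flow-sort batches, with 3 mice of each group in each. The study asks which transcripts differ in macrophages once the lung has become tolerant to ozone.

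NRF2, encoded by Nfe2l2, is a transcription factor that KEAP1 marks for degradation in resting cells. Oxidants and electrophiles modify cysteines of KEAP1, NRF2 then accumulates, pairs with small MAF proteins and binds antioxidant response elements near its target genes. These targets make and recycle glutathione, reduce thioredoxin and peroxiredoxins, and supply the NADPH on which both systems run. In the airspaces alveolar macrophages meet inhaled ozone and its lipid oxidation products directly, and the lining fluid around them is rich in glutathione. Because NRF2 is controlled largely at the protein level, its own transcript need not follow its activity.

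Each value is a difference, on a log2 scale after variance stabilization. The reference is the average over the filtered-air group, so that group has a mean of 0 in every gene. The abundance of a gene and the total read count of a library were not kept in the table, and differences of genes with few reads are compressed. All 36 genes lay above the no-read level in all 12 mice. Between 19475 and 20438 of the 25444 varying genes did so in each library, and RNA integrity numbers lay between 8.9 and 9.7. All 12 markers of alveolar macrophages, among them Siglecf, Marco and Fabp4, had reads in enough mice to be kept, although the table holds no level by which to rank them, and 3 of them passed the test (Car4 and Chil3 higher, Krt79 lower). In each list of markers for other cell types 0 genes passed. Ly6g, Mpo, Elane, Ngp and Camp of neutrophils and Ccr3, Epx and Prg2 of eosinophils were not kept. S100a8, S100a9, Retnlg, Ltf and Mmp8 of neutrophils and Il5ra of eosinophils were kept, above the no-read level in all 12 mice. Every marker in the lists of the remaining cell types was kept as well. The list of other cells with the largest median shift was that of B cells, with 6 of 6 markers lower on average after ozone (median difference -0.23) and a summed level from -2.58 to -0.42 after ozone against -1.48 to 2.29 in filtered air. All 5 kept erythroid markers were higher on average (median 0.14) and all 5 endothelial markers lower (median -0.091). Whether RNA of other cells has a part in the differences given here was not tested, and in bulk RNA fewer cells of a type and less RNA per cell cannot be told apart.

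Of the 36 genes, 1 passed the test between ozone and filtered air, the peroxiredoxin Prdx4, which was higher after ozone. That is 2.78% of the list, against 4.25% of the 19633 genes tested that were called in either direction. Called as higher were 1 of the 36 and 2.41% of all genes, and called as lower were 0 of the 36 and 1.84% of all genes. An unadjusted p under 0.05 was found for 5 of the 36 (Prdx4, G6pdx, Gsr, Gstm1 and Idh1), all with a positive difference, or 13.9% against 16.7% of all genes tested. That count depended on single mice: it was 10 (27.8% against 17% of all genes) without ozone mouse 6, 8 (22.2% against 15.7%) without filtered-air mouse 4 and 3 (8.33% against 15.4%) without ozone mouse 5. The groups did not overlap in 1 gene, Gsr, which is 2.78% of the list against 3.53% of all genes. The median difference of the 36 was 0.023, and that of all genes was -0.0033. For the 36 it also depended on single mice, at 0.00027 without filtered-air mouse 6 and 0.041 without ozone mouse 6. The median absolute difference was 0.049 in the list and 0.046 over all genes.

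The intervals show what size of difference these data leave room for. The 95% interval of a gene reached 0.107 to either side in the median of the 36, from 0.0727 for Gsr to 0.168 for Srxn1. The 834 genes called in the whole table had a median absolute difference of 0.253. In 34 of the 36 genes the interval ended short of that size on both sides, and in Srxn1 and Prdx4 it reached it. Against the smallest absolute difference of a called gene, 0.121, the intervals of 29 genes reached that size and those of 7 (Nfe2l2, Keap1, Gclc, Gsta4, Txn2, Sod1 and Cat) did not. Prdx4, Gsr, Gstm1, G6pdx and Idh1 had intervals that lay above 0.

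**Figure D1:**
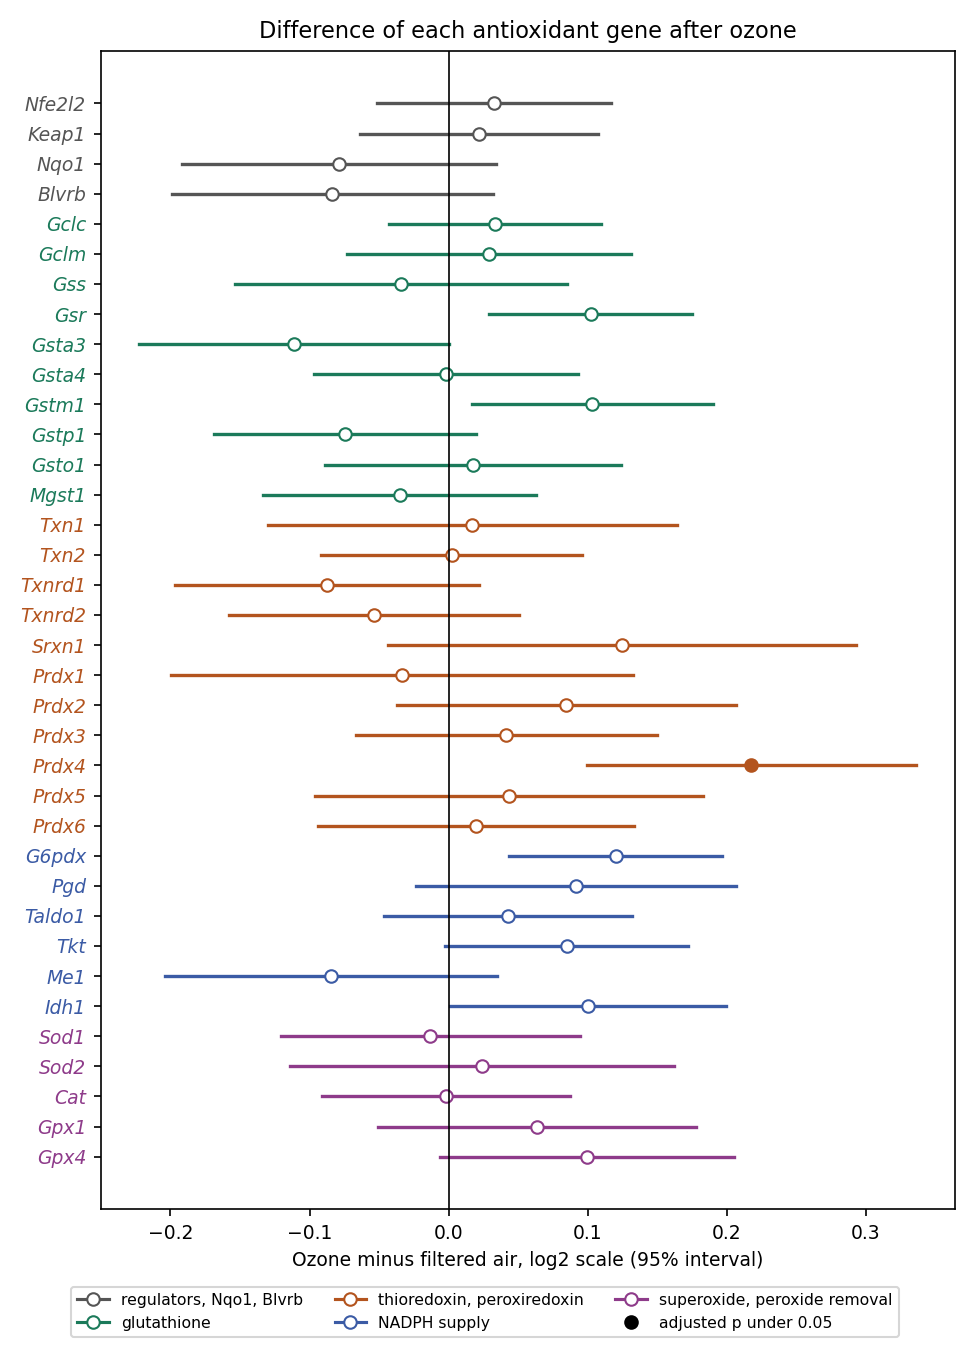
Difference between ozone and filtered air (horizontal axis, log2 scale) for each of the 36 genes (vertical axis, coloured by class), with points for the estimate and lines for the 95% interval from 6 mice a group. The filled point is Prdx4 at 0.22, the only gene here that passed the test, and the intervals of 31 genes include 0.

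Antioxidant response elements were looked for in the promoters, because they are the feature by which NRF2 recognises its targets. Promoter windows from RefSeq (GRCm38.p6) were matched for 32 of the 36 genes, and not for Gclc, Gsr, Gsta4 and Prdx6. Each window runs from 250 bases before to 50 after an annotated transcript start, which need not be the gene's outermost one. The core TGACNNNGC was searched on both strands, and it includes the form TGACTCAGC, which also contains the AP-1 motif TGACTCA. It was present for 11 of the 32 genes (34.4%), and for 14.0% of all 27025 gene symbols in that table. Counted by window, 11 of 43 windows of these genes (25.6%) and 12.4% of all 32851 windows held it. The form TGACTCAGC occurred for 2 of the genes, Prdx1 and Me1, and for 0.503% of all symbols. A match is a run of letters and shows no binding, and a window without one can still have an element outside it. The sites of 8 genes are shown to set identical or related cores beside different ozone values, each written 5′ to 3′ on the strand that carries the core, with the core in capitals.
Prdx1: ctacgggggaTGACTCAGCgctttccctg
Me1: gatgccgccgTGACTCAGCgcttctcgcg
Gsta3: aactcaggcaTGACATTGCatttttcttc
Pgd: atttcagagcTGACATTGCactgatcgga
G6pdx: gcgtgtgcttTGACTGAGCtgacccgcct
Gclm: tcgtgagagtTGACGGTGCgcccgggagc
Srxn1: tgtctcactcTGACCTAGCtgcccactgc
Txnrd1: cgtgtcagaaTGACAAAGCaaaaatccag

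The core of Prdx1 lies at chr4:116685466-116685474 on the minus strand and begins 133 bases upstream of the transcript start that its window is built on, as read along the gene. The core of Me1, at chr9:86695912-86695920 on the minus strand, spans the transcript start, with 6 bases before it and 3 after. Upstream of the transcript start lie the cores of Gsta3 (chr1:21240464-21240472, plus strand, 121 bases upstream), G6pdx (chrX:74428929-74428937, plus strand, 57 bases upstream), Gclm (chr3:122245423-122245431, minus strand, 134 bases upstream) and Txnrd1 (chr10:82859114-82859122, minus strand, 92 bases upstream). The transcript start used for Txnrd1 is an internal one, 25255 bases inside the gene as RefSeq bounds it, so that core lies within the gene. The cores of Pgd (chr4:149166071-149166079, minus strand) and Srxn1 (chr2:152105552-152105560, minus strand) begin at bases 4 and 29 counted from the transcript start. For Pgd that start lies 623 bases inside the gene, for Gclm 70 and for Gsta3 20, and for Prdx1, Me1, G6pdx and Srxn1 it is the gene's outermost start.

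Genes with the same core did not always have differences of the same sign, and none of the following passed the test. Prdx1 and Me1, which hold the same 9 letters, had differences of -0.034 and -0.084. Gsta3 and Pgd also hold the same core, and their differences were -0.11 and 0.091. Among the 11 genes with a core, which also include Mgst1, Nfe2l2 and Sod1, 5 had a positive and 6 a negative difference, from -0.11 for Gsta3 to 0.12 for Srxn1, and 0 passed the test. Their median was -0.013, and that of the 21 genes without a core in the window was 0.024, with 1 called. The difference between these sets of genes was not tested.

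The regulators Nfe2l2 and Keap1 lay close to their filtered-air level. Nfe2l2 values ran from -0.085 through a median of 0.004 to 0.097 in filtered air and from -0.045 through 0.034 to 0.10 after ozone. The groups overlapped over nearly their whole range, and filtered-air mouse 2 and ozone mouse 2 were the highest. The difference was 0.033 (SE 0.0392, limma's adjusted p = 0.758), with an interval from -0.051 to 0.12. Keap1, the adaptor that hands NRF2 to the ubiquitin ligase, ran from -0.069 through 0.003 to 0.050 in filtered air and from -0.087 through 0.028 to 0.099 after ozone. Both the highest and the lowest mouse of the series for Keap1 were ozone mice, numbers 1 and 6. Its difference was 0.022 (SE 0.0400, limma's adjusted p = 0.855), with an interval from -0.064 to 0.11.

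Nqo1 and Blvrb, reductases of quinones and of biliverdin, had negative differences that did not pass. Nqo1, the quinone reductase that is a standard NRF2 target, ran from -0.093 through -0.007 to 0.14 in filtered air and from -0.19 through -0.083 to 0.062 after ozone. Its 3 lowest mice were ozone mice 4, 5 and 6. The difference was -0.079 (SE 0.0527, limma's adjusted p = 0.513), with an interval from -0.19 to 0.034. In flow-sort batch 1 the difference was -0.16, and in batch 2 it was 0.0027. Blvrb, biliverdin reductase B, ran from -0.14 through -0.032 to 0.15 in filtered air and from -0.18 through -0.078 to -0.010 after ozone. All 6 ozone mice lay below the filtered-air mean, but filtered-air mouse 6 was lower than 5 of them, and the difference of -0.084 (SE 0.0538) had an adjusted p of 0.496 in limma.

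Glutathione is built in 2 steps, by glutamate-cysteine ligase and then by glutathione synthetase, and 0 of the 3 genes that encode these enzymes passed. Gclc, the catalytic subunit of the ligase, had a difference of 0.033 (interval -0.043 to 0.11), and Gclm, its modifier subunit, one of 0.029 (interval -0.073 to 0.13). Gclm varied more among filtered-air mice (SD 0.101, n = 6) than after ozone (SD 0.0489, n = 6), with filtered-air mouse 4 highest at 0.17. Its difference was 0.066 without that mouse and 0.0072 without filtered-air mouse 5. Gss, the synthetase, had a difference of -0.034, made of -0.15 in batch 1 and 0.082 in batch 2. In limma's test of the ozone difference between batches it was the 1 gene of the 36 with an unadjusted p under 0.05, a share of 2.78% against 2.6% of all genes tested, and it did not pass after adjustment.

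Gsr, glutathione reductase, returns oxidised glutathione to its reduced form with NADPH. Its values ran from -0.068 through 0.005 to 0.030 in filtered air and from 0.060 through 0.088 to 0.18 after ozone. All 6 ozone mice were above every filtered-air mouse, and the gap between the groups ran from 0.030 in filtered-air mouse 1 to 0.060 in ozone mouse 5. The SD over 6 mice was 0.0413 after ozone, around a mean of 0.10, and 0.0353 in filtered air. The difference of 0.10 (SE 0.0339, interval 0.029 to 0.17) did not pass the threshold in limma (adjusted p = 0.120). It was 0.076 in batch 1 and 0.13 in batch 2. Gsr had the narrowest spread among mice of the 36 genes, at the 2.77th percentile of all genes tested.

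The glutathione transferases, which join glutathione to electrophiles, pointed both ways. Gstm1 ran from -0.059 through 0.002 to 0.068 in filtered air and from 0.040 through 0.076 to 0.21 after ozone. All 6 ozone mice exceeded the filtered-air mean, ozone mice 1 and 5 were highest, and 3 ozone mice lay within the filtered-air range. Its difference was 0.10 (SE 0.0404, limma's adjusted p = 0.197). Gsta3 had the lowest difference of the 36 genes, -0.11 (SE 0.0520, limma's adjusted p = 0.301). It ran from -0.085 through -0.024 to 0.19 in filtered air and from -0.21 through -0.12 to 0.020 after ozone. Filtered-air mouse 3 was far above the others, and without that mouse the difference of Gsta3 was -0.070. It was -0.19 in batch 1 and -0.031 in batch 2. Gstp1 had a difference of -0.075 and Mgst1, the membrane-bound microsomal form, one of -0.035. Gsta4, which acts on lipid aldehydes, and Gsto1 had differences of -0.0018 and 0.018. The transferases, like the peroxiredoxins and thioredoxins described next, belong to families of similar genes. How reads shared by such genes were assigned is not given in the sources used here, so a value, that of Prdx4 included, may mix copies. Of the whole glutathione class 5 of 10 genes had a positive and 5 a negative difference, with a median of 0.0080.

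**Figure D2:**
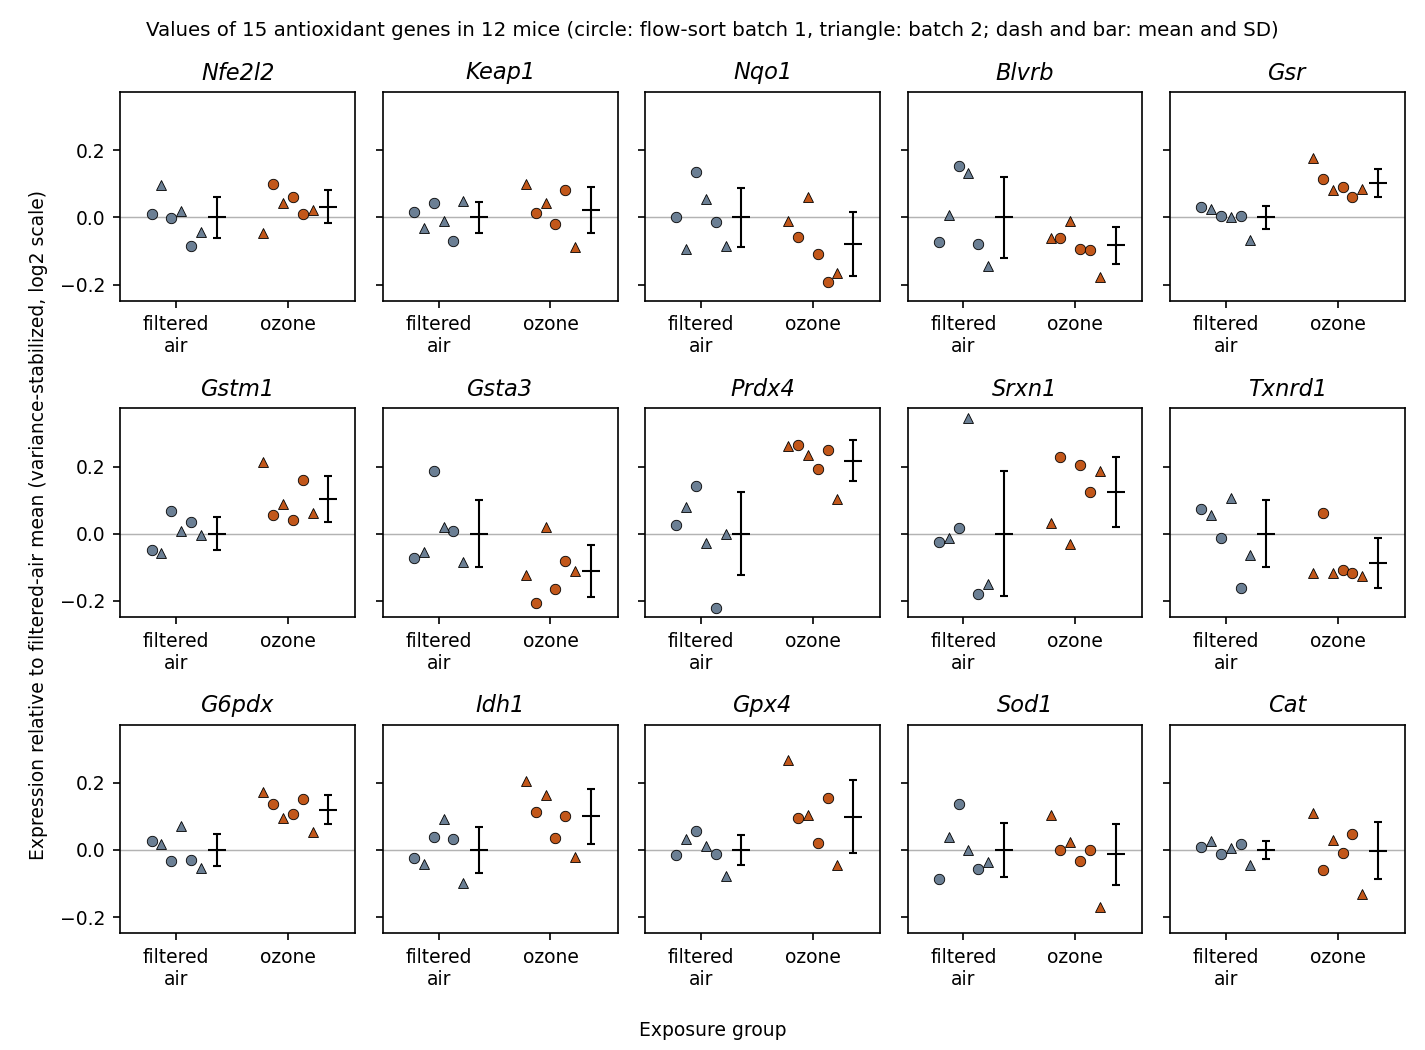
Values of 15 of the genes in each mouse (vertical axis, difference from the filtered-air mean on a log2 scale) for filtered air and ozone (horizontal axis), with circles for flow-sort batch 1, triangles for batch 2, and a dash and bar for mean and SD of 6 mice. Gsr is the gene whose groups do not overlap, and in Prdx4 5 of 6 ozone mice lie above every filtered-air mouse.

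The thioredoxin system reduces many of the peroxiredoxins, which in turn break down hydrogen peroxide and lipid peroxides. Of the 11 genes of the thioredoxin and peroxiredoxin class, 8 had a positive difference and 1, a peroxiredoxin, passed. Prdx4, the peroxiredoxin of the endoplasmic reticulum, ran from -0.22 through 0.013 to 0.14 in filtered air and from 0.10 through 0.24 to 0.26 after ozone. Of the ozone mice 5 were above every filtered-air mouse, while ozone mouse 6, at 0.10, lay below filtered-air mouse 3, at 0.14. Ozone mice had a mean of 0.22 ± 0.0617 (SD, n = 6), and the wider filtered-air group had an SD of 0.124. Prdx4 rose by 0.22 (SE 0.0552, limma's adjusted p = 0.0391), with an interval from 0.10 to 0.34. The difference was 0.25 in batch 1 and 0.18 in batch 2. The call rests close to the threshold, since leaving out 1 mouse at a time ended it in 8 of 12 fits, with limma's adjusted p from 0.0229 to 0.0864. It held without filtered-air mice 2, 3 or 5 or ozone mouse 6. It was also lost with a mean trend in the prior variance (limma's adjusted p = 0.0511) and after quantile normalization (difference 0.19, limma's adjusted p = 0.292).

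The other 5 peroxiredoxins did not pass. Prdx2, a cytosolic form, had a difference of 0.085 (interval -0.037 to 0.21), which was 0.16 in batch 1 and 0.0074 in batch 2. Prdx3, the mitochondrial form, had 0.041, Prdx5 0.044 and Prdx6, which works with glutathione, 0.020. Prdx1, a cytosolic form and NRF2 target, had -0.034 (interval -0.20 to 0.13). Its values ran from -0.17 through 0.049 to 0.12 in filtered air and from -0.31 through -0.023 to 0.22 after ozone, so ozone mice 6 and 1 were the lowest and the highest of the series.

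Thioredoxins and their reductases stayed on both sides of 0. Txn1, the cytosolic thioredoxin, had a difference of 0.017 and ran from -0.23 in ozone mouse 6 to 0.23 in ozone mouse 1, a wider range than in filtered air, where it ran from -0.14 to 0.10. Txn2, the mitochondrial thioredoxin, had a difference of 0.0022, and its reductase Txnrd2 one of -0.054. Txnrd1, the selenoprotein that reduces Txn1, ran from -0.16 through 0.022 to 0.11 in filtered air and from -0.13 through -0.12 to 0.063 after ozone. In 5 of the 6 ozone mice it lay between -0.13 and -0.11, and ozone mouse 2 stood at 0.063. The difference was -0.088 (SE 0.0511, limma's adjusted p = 0.436). Srxn1, sulfiredoxin, which restores overoxidised peroxiredoxins, ran from -0.18 through -0.018 to 0.35 in filtered air and from -0.029 through 0.16 to 0.23 after ozone. Filtered-air mouse 4 had the highest value of the series for it, and without that mouse the difference was 0.20. Its difference of 0.12 (SE 0.0785, limma's adjusted p = 0.481) was 0.25 in batch 1 and 0.0024 in batch 2, and its spread among mice was at the 92.2nd percentile of all genes tested. The known NRF2 targets Txnrd1 and Srxn1 thus had estimates of opposite sign.

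NADPH supply was the class with the highest median difference, 0.088, with 5 of 6 genes positive and 0 called. G6pdx, glucose-6-phosphate dehydrogenase, opens the pentose phosphate pathway and yields its first NADPH. It ran from -0.052 through -0.005 to 0.071 in filtered air and from 0.054 through 0.12 to 0.17 after ozone. Of the ozone mice 5 were above every filtered-air mouse, and only ozone mouse 6, at 0.054, lay under filtered-air mouse 4, at 0.071. Ozone mice averaged 0.12 with an SD of 0.0435, and filtered-air mice had an SD of 0.0465. The difference of 0.12 (SE 0.0358, interval 0.043 to 0.20) had an adjusted p of 0.0794 in limma. It was 0.15 in batch 1 and 0.095 in batch 2, and without the batch term its adjusted p was 0.0454.

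Pgd, 6-phosphogluconate dehydrogenase, which yields the other NADPH of the pathway, had a difference of 0.091 (interval -0.024 to 0.21). Its values ran from -0.11 through -0.004 to 0.17 in filtered air and from -0.048 through 0.11 to 0.19 after ozone, with filtered-air mouse 4 above every ozone mouse but number 5. Tkt and Taldo1, transketolase and transaldolase of the sugar-shuffling branch, had differences of 0.085 (interval -0.0023 to 0.17) and 0.043 (interval -0.046 to 0.13). All 6 ozone mice exceeded the filtered-air mean in Tkt. Idh1, the cytosolic NADP-dependent isocitrate dehydrogenase, ran from -0.099 through 0.005 to 0.092 in filtered air and from -0.021 through 0.11 to 0.21 after ozone, and its difference of 0.10 (SE 0.0463) had an adjusted p of 0.292 in limma. Me1, malic enzyme, was the gene of the class with a negative difference, -0.084 (interval -0.20 to 0.035). In 4 ozone mice it lay between -0.20 and -0.087, and ozone mice 4 and 6 stood at 0.033 and 0.071.

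Superoxide dismutases, catalase and glutathione peroxidases showed 0 calls in 5 genes. Sod1, the cytosolic copper-zinc form, had a difference of -0.013 (interval -0.12 to 0.094), and Sod2, the mitochondrial manganese form, one of 0.024 (interval -0.11 to 0.16). In Sod2 filtered-air mouse 4 was the highest of the series at 0.27. Cat, catalase of peroxisomes, had a difference of -0.0019 (interval -0.091 to 0.087). Its filtered-air mice lay within a narrow range, from -0.046 to 0.026, while its ozone mice ran from -0.13 in mouse 6 to 0.11 in mouse 1. Gpx1, the general glutathione peroxidase, had a difference of 0.063 (interval -0.051 to 0.18). Gpx4, which removes lipid hydroperoxides from membranes, ran from -0.076 through 0.001 to 0.055 in filtered air and from -0.045 through 0.10 to 0.27 after ozone. In 4 of 6 ozone mice it was above every filtered-air mouse, and ozone mouse 6 was below 5 of them. Its difference was 0.10 (SE 0.0494, limma's adjusted p = 0.335).

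**Figure D3:**
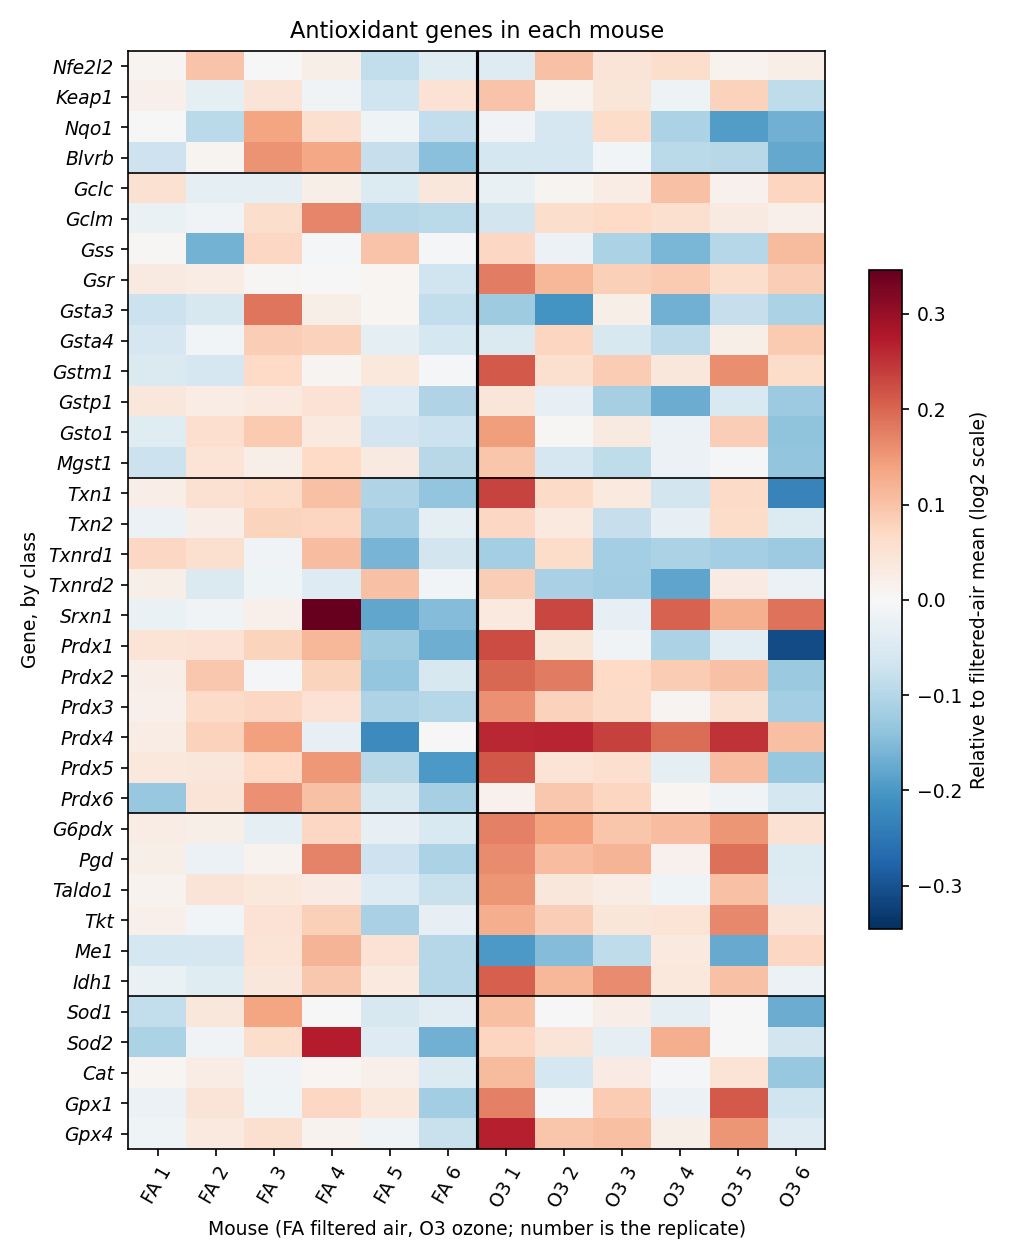
Value of each of the 36 genes (rows, by class) in each of the 12 mice (columns), coloured by the difference from the filtered-air mean on a log2 scale. Columns differ within a group, with ozone mouse 1 mostly red and ozone mouse 6 mostly blue.

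Mice of 1 group differed from each other across many of these genes at once. Ozone mouse 1 had the highest value of its group in 19 of the 36 genes and ozone mouse 6 the lowest in 21. In filtered air, mouse 4 was highest in 15 and mouse 3 in 12, while mouse 6 was lowest in 19 and mouse 5 in 11. The mean over the 36 genes ran from -0.050 in ozone mouse 6 to 0.089 in ozone mouse 1, and from -0.075 in filtered-air mouse 6 to 0.073 in filtered-air mouse 4, so the groups overlapped over most of their range. The median over all genes tested stayed between -0.005 and 0.003 in each of the 12 mice. Ozone mice 6 and 1 had the fewest genes above the no-read level, 19475 and 19538, and filtered-air mouse 4 had the lowest RNA integrity number, 8.9. Filtered-air mouse 4 also had the highest mean of the kept markers among the 12 mice in 6 of the 13 lists for other cell types. These means were 0.385 for monocytes, 0.381 for B cells, 0.337 for neutrophils, 0.321 for alveolar type 2 cells, 0.257 for T and NK cells and 0.241 for alveolar type 1 cells. Filtered-air mouse 3 was highest in 3 lists, those of club and goblet, endothelial and eosinophil markers. Ozone mouse 1 had the highest mean of erythroid markers, 0.369, and ozone mouse 6 that of fibroblast markers, 0.257. The part of depth, RNA quality and RNA of other cells in these patterns was not tested. The spread among mice was above that of the median gene in 22 of the 36 genes, and the widest were Srxn1, Prdx1 and Txn1.

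To ask whether partners in a pathway varied together among mice of 1 exposure, each mouse was set against the mean of its own group and batch, and 10 pairs of genes were correlated over the 12 mice. Tested by all 1296 rearrangements within group and batch, 2 pairs passed after adjustment over the 10 pairs. The 10 pairs were chosen after values were seen, and the adjustment does not account for that choice. G6pdx and Pgd, the consecutive NADPH-yielding steps, had a Pearson r of 0.870 (exact permutation test, p = 0.00926, adjusted p = 0.0463) and a Spearman rho of 0.846 (exact permutation p = 0.0131, adjusted p = 0.0656). Tkt and Taldo1 had an r of 0.749 (exact permutation test, p = 0.00772, adjusted p = 0.0463) and a rho of 0.769 (exact permutation p = 0.00849, adjusted p = 0.0656). Leaving out the 2 mice farthest from the median of the gene on the x axis gave an r of 0.804 and of 0.716. By rank, then, 0 of the 10 pairs passed.

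The other 8 pairs did not pass by either measure. Txn2 with Prdx3, the mitochondrial thioredoxin and the peroxiredoxin it reduces, had an r of 0.739 (exact permutation adjusted p = 0.0972), Txnrd1 with Srxn1 one of 0.623 (exact permutation adjusted p = 0.0972) and Txn1 with Txnrd1 one of 0.467 (exact permutation adjusted p = 0.0972). Nqo1 with Gclm had 0.632 (exact permutation adjusted p = 0.108). Gclc and Gclm, subunits of 1 enzyme, had an r of 0.147 (exact permutation adjusted p = 0.736). Values for Gclc with Gss, Txn2 with Txnrd2 and Prdx1 with Srxn1 were -0.098, 0.246 and 0.221. As a measure of how common such values are in these libraries, 131 of all genes tested had a higher r with G6pdx than Pgd did, and 408 had a higher r with Tkt than Taldo1 did. Without the 2 mice farthest from the median, Txn1 with Txnrd1 gave 0.754, Prdx1 with Srxn1 0.758 and Txn2 with Txnrd2 0.717, and Gclc with Gss turned from -0.098 to 0.247, so these values rest on few mice. All genes of a mouse share its library and RNA quality.

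**Figure D4:**
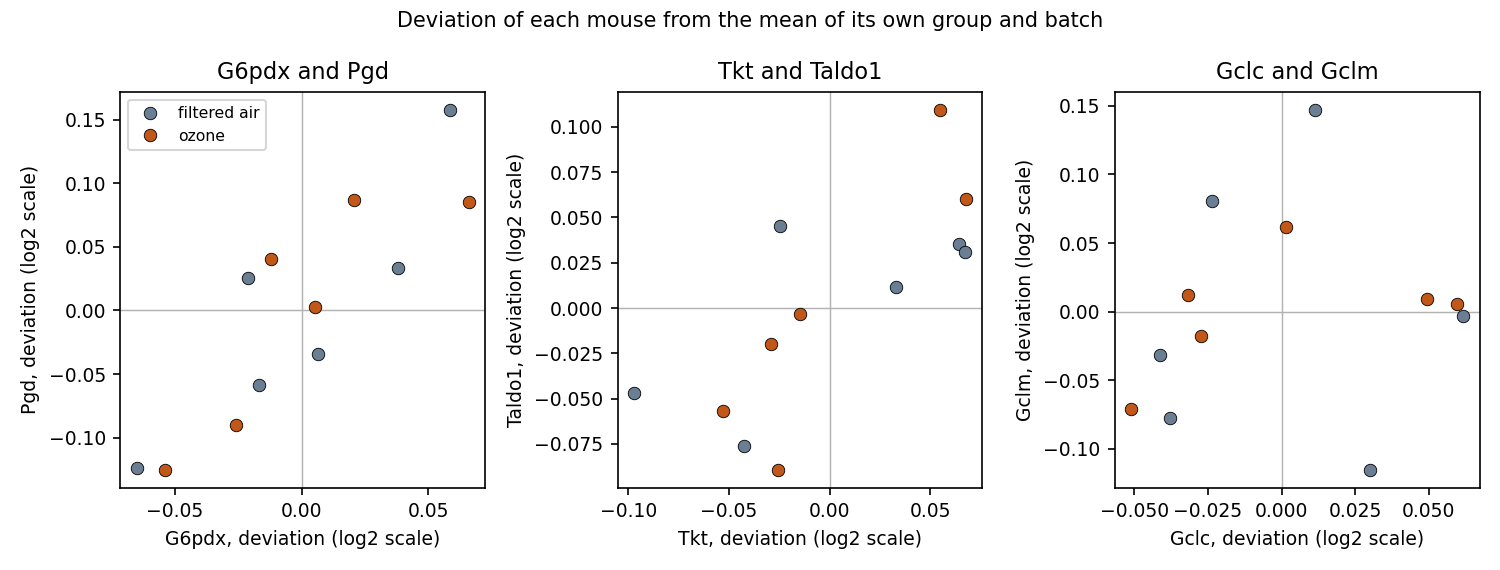
Deviation of each mouse from the mean of its own group and batch (both axes, log2 scale) for G6pdx with Pgd, Tkt with Taldo1 and Gclc with Gclm, with 1 point for each of 12 mice. The first 2 panels rise along the diagonal (r 0.870 and 0.749), and the ligase subunits do not (r 0.147).

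Wider coverage of the pathway came from 93 further genes in 6 lists, of which 90 were kept and 1 was called, Glrx, against 4.25% of all genes tested. Their median difference was -0.014. Glrx, glutaredoxin, uses glutathione to reduce protein disulfides, and it was the 1 called gene among 28 further glutathione genes that were kept. It ran from -0.070 through 0.001 to 0.069 in filtered air and from 0.057 through 0.20 to 0.28 after ozone, with 5 of 6 ozone mice above every filtered-air mouse. Glrx rose by 0.19 (SE 0.0423, interval 0.10 to 0.28, limma's adjusted p = 0.0183), and its call held in each of the 12 fits without 1 mouse but not after quantile normalization or in either batch alone. In that list Gsta1, Gsta2 and Gstm3 were not kept, because too few mice were above the no-read level.

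In the other 5 lists 0 genes passed, and the gene with the smallest p of each is given. Some passed under an alternative, namely Bach1 without the batch term or without filtered-air mouse 3, Mthfd2 without the batch term or with an RNA integrity term, and Ftl1 without ozone mouse 6. Named after their values were seen, Slc7a11, the cystine transporter, passed without filtered-air mouse 4, and Ephx1, an epoxide hydrolase, with the replicate number as a block. Aldh1l1, a folate enzyme that yields NADPH and was also named after its values were seen, passed in 7 of the 25 alternatives, at a difference of 0.20 (limma's adjusted p = 0.0706). Among 10 genes of NRF2 control, 9 had a negative difference, with a list median of -0.030. Of the 19633 genes tested, 10210 had a negative difference. Bach1, the heme-regulated repressor that competes with NRF2 for the same elements, had a difference of -0.18 (SE 0.0485, interval -0.28 to -0.072, limma's adjusted p = 0.0584). It ran from -0.10 through -0.019 to 0.11 in filtered air and from -0.28 through -0.18 to -0.084 after ozone, so all 6 ozone mice were below the filtered-air mean and the groups overlapped at their edges. Of 13 other NRF2 targets, Ftl1, the ferritin light chain, had a difference of 0.15 (SE 0.0465, limma's adjusted p = 0.0950), with all 6 ozone mice above the filtered-air mean. Among 14 other thioredoxin and methionine sulfoxide genes, Txndc12, a disulfide enzyme of the endoplasmic reticulum, had a difference of 0.12 (SE 0.0396, limma's adjusted p = 0.112) and groups that did not overlap. Of 16 genes listed around NADPH supply, not all of which yield NADPH, Mthfd2, a mitochondrial folate enzyme, had a difference of -0.24 (SE 0.0672, limma's adjusted p = 0.0643). Its groups did not overlap either. Of 9 other genes of superoxide and peroxide removal, Pon2, a paraoxonase, had a difference of -0.11 (SE 0.0738, limma's adjusted p = 0.499). Of the lists' 90 kept genes, 2 had groups that did not overlap, against 3.53% of all genes.

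The ozone difference was then set side by side between the flow-sort batches, each with 3 mice against 3. In 26 of the 36 genes it had the same sign in both batches, and in 10 it did not. Prdx4, G6pdx, Gsr, Gstm1, Idh1 and Gpx4 were positive in both, and Gsta3, Blvrb, Gstp1 and Me1 were negative in both. The widest gaps between the batches were those of Srxn1, Gss and Nqo1. Limma's test of the difference between batches called 0 of the 36 genes at an adjusted p under 0.05, and 1 at an unadjusted p under 0.05, and it called 0 of all genes tested, or 0%.

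**Figure D5:**
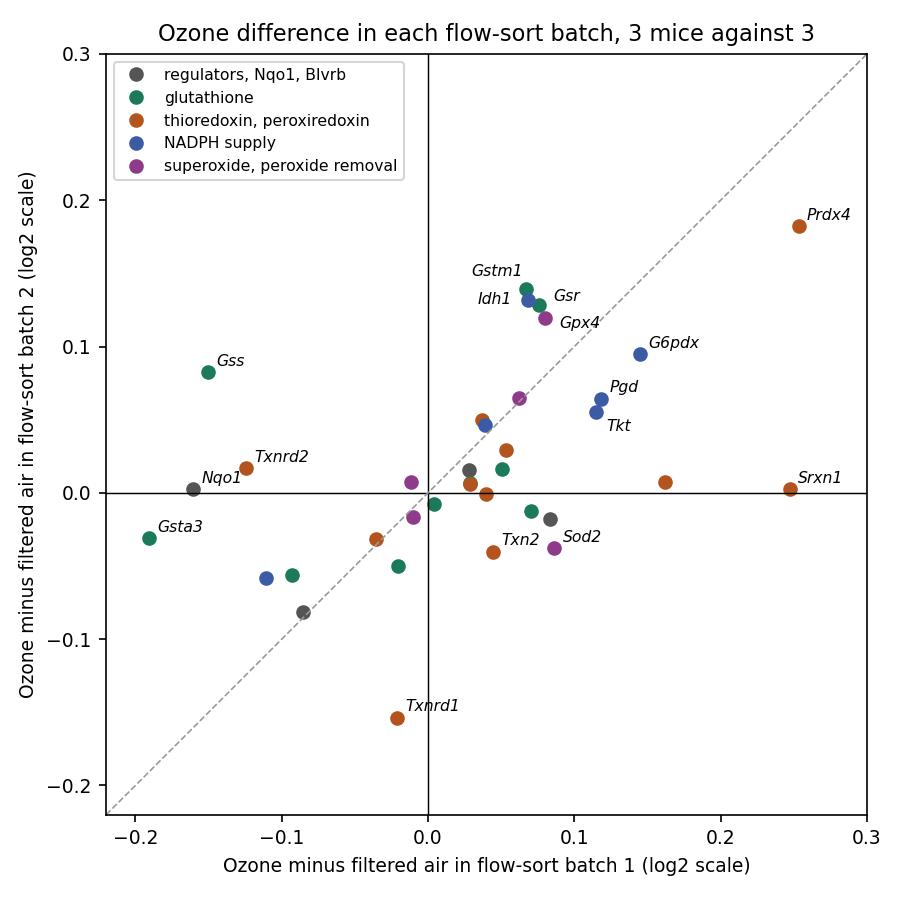
Difference between ozone and filtered air in flow-sort batch 1 (horizontal axis) and batch 2 (vertical axis), both on a log2 scale with 3 mice a group, for the 36 genes coloured by class; the dashed line marks equal values. Prdx4 lies at 0.25 and 0.18, and Srxn1 at 0.25 and 0.0024.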

How the data were processed

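Stranded mRNA libraries of 12 sorted samples were sequenced as paired-end reads, per the labels' protocols. Cutadapt, STAR 2.7.7a, Salmon 1.5.2, DESeq2 1.26.0, limma 3.42.2 and the build mm10 are named in the submitters' processing notes, without roles; the annotation is not given in the sources used here. The authors deposited 1 table of log2-scale values, variance-stabilized and batch-corrected per its name. Each column matched 1 sample title, and 0 pairs of columns were identical.

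From these values genes were kept where at least 6 of 12 mice lay above the lowest value shared within their batch, taken as no reads. Limma 3.58.1 in R 4.3.3 was fitted to the 19633 genes kept, with flow-sort batch as a term, since the deposited values have equal batch means in every gene. P-values are two-sided, Benjamini-Hochberg adjusted over all genes kept, with a threshold of 0.05 and moderated 95% intervals. The fit was tested on simulated data. Same-numbered mice are different animals and were not paired. Pairs of genes were tested by exact permutation, two-sided.

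The 36 genes, the lists and the filter were chosen with earlier results of these data known. Named first are the 36 genes, with full values for genes that passed, did not overlap or had the smallest p of their class, and for Nfe2l2 and Keap1; of further genes, those called or first in their list. Other genes given in full, the 10 correlated pairs and the promoter motif were chosen after values were seen. Alternatives were other filters, prior variances, scalings, covariates, single batches, and fits without mice.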

Additional observations from a re-analysis of the deposited data

Results flagged for a closer look

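Among 72 combinations of gene and group examined, 2 held a mouse that stood away from the remaining 5 by Dixon's ratio of gap to range, where chance alone gives about 1 in 20, or 3.6. Txnrd1 in ozone mouse 2 stood at 0.063, while the next highest ozone mouse was at -0.11 (ratio 0.907). Gsr in filtered-air mouse 6 stood at -0.068, below the next filtered-air mouse at 0.001 (ratio 0.702).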

How the results depend on the processing

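Over 25 alternatives, 842 of 900 differences of the 36 genes kept their sign and their side of the threshold, 13 lost a call (all Prdx4), 1 gained a call (G6pdx without the batch term) and 44 changed sign in 15 genes; the cause was not tested. With median centring Gsta4 was 0.00086 and Cat 0.00077, with quantile normalization Cat was 0.0026, and with an RNA integrity term Gsta4 was 0.0050. In batch 1 alone Gsta4 was 0.0038. In batch 2 alone Nfe2l2 was -0.018, Nqo1 0.0027, Gclm -0.013, Gss 0.082, Txn2 -0.040, Txnrd2 0.017, Prdx6 -0.00061, Sod2 -0.038 and Cat 0.0075. Without filtered-air mouse 4 and ozone mouse 4 together, Gsta4 was 0.040, Prdx1 0.015 and Cat 0.00093. Leaving out each mouse in turn gave Gsta4 -0.022 to 0.018, Gsto1 -0.010 to 0.052, Txn1 -0.031 to 0.072, Txn2 -0.025 to 0.021, Prdx1 -0.091 to 0.028, Prdx5 -0.00046 to 0.082, Prdx6 -0.0098 to 0.054, Sod1 -0.039 to 0.022, Sod2 -0.013 to 0.084, Cat -0.027 to 0.027 and Prdx4 0.17 to 0.25. In all, 26 of the 36 differences moved by over 1.5 times or changed sign without 1 mouse.

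Of the 36 genes, 0 were called with a mean trend, quantile normalization, batch 1 alone, batch 2 alone, or without both mice numbered 4, and 2 without the batch term, 1 of them in NADPH supply; with 1 mouse left out 0 to 1 were called. Of the further pathway genes, 5 were called without the batch term, 0 with quantile normalization or in either batch alone, 3 with RNA integrity, 2 without both mice numbered 4, and 1 to 3 with 1 mouse left out. Over all genes, 171 were called with quantile normalization, 90 in batch 1, 0 in batch 2 (1800 at an unadjusted p under 0.05), 534 without both mice numbered 4 and 538 to 751 with 1 mouse left out. With 1 mouse left out the median difference of the 36 ran between 0.00027 (filtered-air mouse 6) and 0.041 (ozone mouse 6), and without both mice numbered 4 it was 0.044. With the replicate number as a block, 1 of the 36 (Prdx4) and 4 of the further genes (Glrx, Ephx1, Mgst3 and Aldh1l1) were called. With batch as well, an alternative added after seeing the data, these were 1 and 3 (Glrx, Ephx1 and Mgst3). Deviations of same-numbered mice correlated from -0.0026 to 0.28, above 0.1 in 4 of 6 pairs but not in all, which was the bar for treating the numbers as pairs. Each mouse was set against the 6 of the other group, and 6 of 12 correlated best with their own number. This is a hint from the data and not the design, so an effect shared by number was not excluded. Read depth was not kept in the table, so its limit on precision is unknown.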
